A study of Mus musculus with 6 samples.

Results

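The genes described here are the mouse zinc-finger genes with symbols from Zfp600 to Zfp999. They were picked by symbol: a probe set had to carry only 1 gene symbol, and where a gene had several probe sets, the one with the highest mean over the 6 arrays stood for it. This gave 155 genes from 167 probe sets, out of 22180 genes and 34351 probe sets on the arrays. The number range was set because Zfp936, Zfp981 and Zfp640 were high in knockdown cells, so the differences between knockdown and control are descriptions with no test. At the lower edge of the range, Zfp600 and Zfp605 lie inside and Zfp598 and Zfp599 outside, and their log2 differences between the Chd4 knockdown and control at day 4 were 2.04, -0.60, 0.42 and 0.36. At the upper edge, Zfp994 and Zfp995 stood at -0.08 and 0.41, and the arrays held no higher-numbered gene of this form.

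C2H2 zinc-finger proteins bind DNA through a row of small zinc-holding fingers, and many of the high-numbered mouse genes also encode a KRAB domain. The KRAB domain recruits the corepressor TRIM28, which brings the histone methyltransferase SETDB1 and heterochromatin proteins to the bound site. In embryonic stem cells such proteins are known for silencing endogenous retroviruses, and their genes lie in clusters of related copies that differ between rodents and other mammals.

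Gene expression was measured on Mouse Gene 2.0 ST arrays in mouse embryonic stem cells infected with a lentivirus carrying a control short hairpin RNA (shRNA), an shRNA against Chd4 or an shRNA against Mbd3. CHD4 and MBD3 belong to NuRD, a complex that joins nucleosome remodeling, the work of the ATPase CHD4, to histone deacetylation. Each line was sampled as stem cells on gelatin in medium with leukemia inhibitory factor and serum (day 0), and as aggregates that had spent 4 days in neural differentiation medium with serum replacement (day 4). Each of the 6 groups holds 1 array, and the control cells carry a lentivirus and an shRNA too. No label states if a line is a pool of infected cells or a clone.

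The deposited intensities had array medians from 39.6 to 41.4. The Chd4 intensity in the Chd4 line was 29.8% of control at day 0 and 71.3% at day 4, and the Mbd3 intensity in the Mbd3 line was 43.0% and 75.5% of control. All 12 markers of naive stem cells reached the array median on each day 0 array, and the summed intensity of 11 early neural markers was 469 to 550 at day 0. Of 8 fibroblast markers 4 or 5 reached the median on any array, and of 5 mesoderm markers 3 or 4. With 1 array a group, a difference between 2 arrays has no check by replicates, and precision is limited by how few arrays there are. A gene entered a comparison where the brighter of its 2 arrays reached that array's median, and a difference of at least 1 on the log2 scale (2-fold) was counted. Where the dimmer array lay under 41.4, the highest array median, a fold is given against 41.4 as "at least".

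Start-site sequences are given first, and how they relate to the levels was not tested. Zfp981 lies in a cluster of related genes on chromosome 4, most with like patterns over the arrays, as described below. The bases upstream of the annotated start sites were alike in 7 of these genes, to differing degrees. Of the 155 genes, 135 had a window in the RefSeq promoter table of build GRCm38.p6, which runs from 250 bases before to 50 after a start site. The longest run of letters that the upstream windows of all but 1 of the 8 matched chromosome 4 genes share was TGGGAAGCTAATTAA, of 15 bases; it was taken from the sequences themselves and is no named motif. Below are 4 of the 7 genes that hold it, chosen to show a close pair and the more distant copies. Each line reads 5′ to 3′ along the gene's strand from the shared run, in capitals, over 135 bases that end before the start site.
Zfp600 (chr4:146156692-146156826, plus strand): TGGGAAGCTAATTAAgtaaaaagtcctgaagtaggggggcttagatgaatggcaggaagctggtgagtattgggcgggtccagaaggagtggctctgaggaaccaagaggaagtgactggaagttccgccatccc
Zfp979 (chr4:147642515-147642649, minus strand): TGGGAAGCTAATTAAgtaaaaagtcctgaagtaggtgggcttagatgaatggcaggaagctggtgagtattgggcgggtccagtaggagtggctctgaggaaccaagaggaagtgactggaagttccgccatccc
Zfp981 (chr4:146514756-146514890, plus strand): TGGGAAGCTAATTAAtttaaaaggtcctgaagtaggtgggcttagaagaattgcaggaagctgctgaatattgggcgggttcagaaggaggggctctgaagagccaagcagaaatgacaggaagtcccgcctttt
Zfp984 (chr4:147809808-147809942, minus strand): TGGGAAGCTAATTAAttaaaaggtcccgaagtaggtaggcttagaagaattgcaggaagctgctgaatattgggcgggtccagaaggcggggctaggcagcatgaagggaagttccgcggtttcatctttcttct

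Between pairs of the 7 genes, the 135 bases differed by 2 to 33 single-base substitutions, insertions or deletions, with a median of 21. Zfp600 and Zfp979 were the closest pair, at 2. Each pair with Zfp984 differed by 28 to 33, and the 5 genes Zfp600, Zfp979, Zfp980, Zfp982 and Zfp985 differed from each other by at most 13. The shared run, searched on both strands, stood in 0.0444% of the 27025 genes of the promoter table (12 genes) and in 5.19% of the matched Zfp600 to Zfp999 genes (7 of 135, all in the chromosome 4 cluster). Since it was picked as the run that these 7 share, the second share was set by that choice and is no enrichment. CCAAT, the letters of a CCAAT box, was found for 60.0% of these zinc-finger genes and 41.1% of all genes, and GGGCGG, those of a GC box, for 48.9% and 38.2%. Each of these stood in 7 of the 8 chromosome 4 genes.

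Zfp936 on chromosome 7 and Zfp640 on chromosome 13 lack the chromosome 4 run of letters. Their 100 bases before the start site are shown because both genes had the same pattern over the arrays. Capitals mark CCAAT and CTTCCGG, the core letters of sites bound by ETS factors; CTTCCGG stood in the windows of 23 of the 135 matched genes, of 0 of the 8 chromosome 4 genes and of 9.93% of all genes.
Zfp936 (chr7:43177490-43177589, plus strand): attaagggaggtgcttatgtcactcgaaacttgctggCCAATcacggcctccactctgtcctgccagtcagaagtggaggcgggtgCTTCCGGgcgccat
Zfp640 (chr13:66680804-66680903, minus strand): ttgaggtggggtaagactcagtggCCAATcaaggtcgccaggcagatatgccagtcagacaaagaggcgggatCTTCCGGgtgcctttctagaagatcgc

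The neural step was first followed in control cells, where the intensities of many Zfp genes differed between the days in both directions. Of the 155 genes, 148 reached the brightness rule in at least 1 comparison and 143 in this one. At day 4, 17 of them (11.9%) were higher by 2-fold or more, against 8.13% of all genes compared, and 11 (7.69%) were at least 2-fold lower, against 4.7% (12.8% either way). Of the 11, 6 lay in the chromosome 4 cluster. In all, 99 of the 143 genes were higher at day 4, against 6943 of 13831 over all genes. The median log2 difference was 0.29, against 0.003 over all genes. The 160 Zfp genes numbered below 600 that entered had a like median, 0.23, with 20 genes at least 2-fold higher and 8 lower. In these bulk samples, fewer cells of a type and less RNA per cell cannot be told apart.

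Among the genes lower at day 4 in control, Zfp936 was lowest. Its intensity was 575 in control at day 0 and 77.6 at day 4, whereas it was 571 and 706 in the Chd4 line and 452 and 576 in the Mbd3 line. The control array at day 4 thus stood apart, below the other 5 arrays, with a log2 day difference of -2.89 in control, 0.31 in the Chd4 line and 0.35 in the Mbd3 line.

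Zfp640, also a C2H2 zinc-finger gene, had the same shape. It stood at 1921 and 316 in control at day 0 and day 4, at 1919 and 2182 in the Chd4 line, and at 1321 and 1911 in the Mbd3 line. Its other probe sets gave control day differences of -2.61 and -2.84, beside -2.60 for the one that stands for the gene, so that all 3 probe sets showed the low control value at day 4. Whether these probe sets also read near-identical copies of the gene was not tested.

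The chromosome 4 cluster is a run of 9 of the Zfp600 to Zfp999 genes, in which no start lies over 1 Mb from the next. Genes outside the number range were left out when runs were formed, so others may lie between these neighbours. The 9 are Zfp980, Zfp600, Zfp992, Zfp981, Zfp982, Zfp985, Zfp979, Zfp984 and Zfp933. Of its 9 genes, 8 were lower at day 4 than at day 0 in control, 6 of them by at least 2-fold. The median log2 difference of the 9 was -1.41. Over all genes, 6888 of 13831 were lower in control, and 4.7% by at least 2-fold. In the knockdown lines the day step gave medians of 0.56 (Chd4, 9 of 9 genes higher at day 4) and 0.37 (Mbd3, 8 of 9 higher). Higher at day 4 over all genes were 6506 of 13406 in the Chd4 line and 6104 of 13348 in the Mbd3 line. The run was singled out after its values were seen, so these counts are descriptions. Genes of such clusters are close copies, and how far their probe sets share signal was not tested.

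Zfp981 had intensities of 929 and 272 in control at day 0 and day 4, 1195 and 2228 in the Chd4 line, and 686 and 2018 in the Mbd3 line. Zfp992 stood at 1457 and 371 in control, 1793 and 3102 in the Chd4 line, and 1688 and 2108 in the Mbd3 line. For both genes the knockdown arrays at day 4 were the brightest of the 6 and the control array at day 4 the dimmest.

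Zfp980 was at 665 and 249 in control, 761 and 1069 in the Chd4 line, and 693 and 895 in the Mbd3 line. Zfp979 was at 542 and 164 in control, 470 and 565 in the Chd4 line, and 599 and 604 in the Mbd3 line. For Zfp979 the knockdown lines hardly moved between the days, with log2 differences of 0.27 and 0.01, while control differed by -1.72. A second probe set of Zfp979 gave a control day difference of -1.27, and the last lay near the lowest intensities of the arrays, at 17.8 to 19.1.

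The dimmer genes of the cluster followed. Zfp982 stood at 135 and 72.3 in control, 150 and 364 in the Chd4 line, and 165 and 265 in the Mbd3 line. Zfp600 stood at 108 and 40.6 in control, 113 and 167 in the Chd4 line, and 138 and 147 in the Mbd3 line. Both were below every other array in control at day 4, and for Zfp600 that value lay under the floor of 41.4.

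Zfp985 went from 77.0 to 28.9 in control, from 81.4 to 188 in the Chd4 line and from 65.5 to 126 in the Mbd3 line. Its control decrease is past 2-fold as measured, at -1.41, but no more than at least 1.86-fold against the floor. Of the 8 genes lower at day 4 in control, Zfp984 had the smallest difference there. It stood at 295 and 191 in control, 283 and 408 in the Chd4 line, and 286 and 370 in the Mbd3 line.

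Zfp933, at the end of the run, did not share the pattern. Its 6 intensities lay between 60.4 and 79.5, with the highest in control at day 4, and its promoter window lacks the shared run of letters. Zfp992 had no entry in the promoter table.

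**Figure D1:**
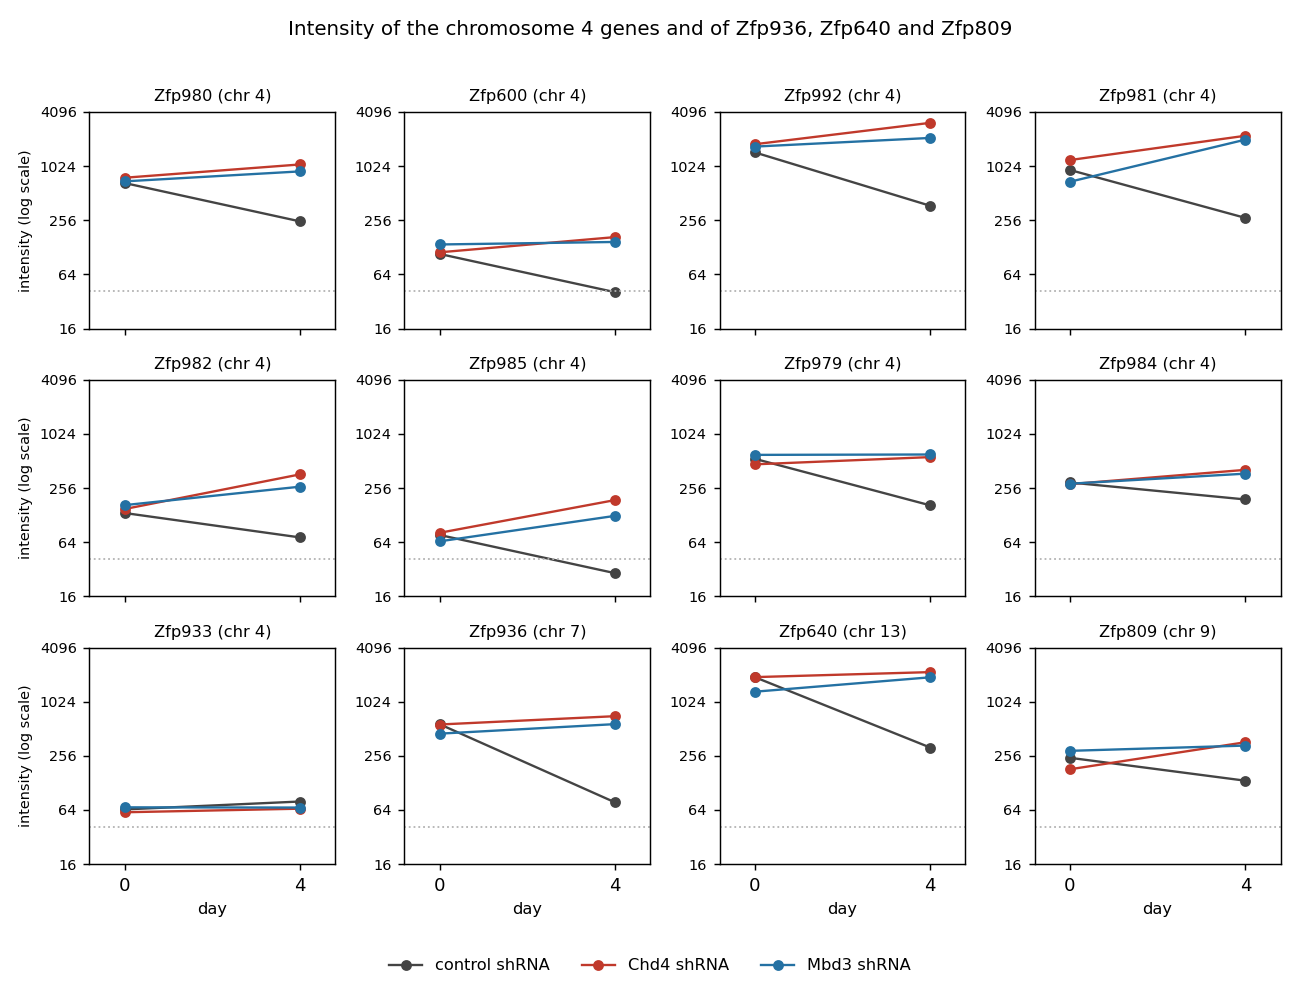
Intensity (log scale) at day 0 and day 4 of the 9 chromosome 4 neighbours and of Zfp936, Zfp640 and Zfp809, 1 point per array, with grey lines for control, red for Chd4 and blue for Mbd3 shRNA; the dotted line is the highest array median, 41.4. In 11 panels the control array is the lowest of the 3 at day 4, while for Zfp933 the 6 values lie between 60.4 and 79.5.

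Outside the cluster, Zfp750, known for its part in skin epidermal differentiation, was at 167 and 43.0 in control at day 0 and day 4. Unlike the genes above, it was lower at day 4 in the knockdown lines as well, at 165 and 125 in the Chd4 line and 307 and 128 in the Mbd3 line. Its log2 day differences were -1.96, -0.40 and -1.26, and it was the only one of the 155 genes at least 2-fold lower at day 4 in a knockdown line.

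Zfp819 stood at 153 and 47.9 in control, 128 and 118 in the Chd4 line, and 124 and 89.0 in the Mbd3 line. Zfp704 was at 271 and 129 in control, 322 and 251 in the Chd4 line, and 321 and 280 in the Mbd3 line. Both were lower at day 4 in all 3 lines, most in control.

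Zfp809 encodes the KRAB zinc-finger protein that binds the primer-binding site of murine leukemia viruses and helps silence them in stem cells. Its intensity was 244 and 135 in control, 181 and 363 in the Chd4 line, and 291 and 333 in the Mbd3 line. Its control day difference, -0.85, missed 2-fold, and both knockdown arrays at day 4 were brighter than all 4 others.

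The genes higher at day 4 in control formed the opposite group. Zfp608, a paralog of the transcriptional regulator gene Zfp609, was highest: it stood at 43.0 and 337 in control at day 0 and day 4, at 44.3 and 78.7 in the Chd4 line, and at 44.1 and 145 in the Mbd3 line. It began at nearly one level on the 3 day 0 arrays and ended higher in all lines, by 2.97 on the log2 scale in control, 0.83 in the Chd4 line and 1.72 in the Mbd3 line.

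Zfp811 was at 39.8 and 196 in control, at 33.6 and 40.8 in the Chd4 line, and at 58.0 and 61.0 in the Mbd3 line. Zfp663 was at 41.5 and 184 in control, at 40.3 and 37.0 in the Chd4 line, and at 33.4 and 36.2 in the Mbd3 line. In both cases only the control array at day 4 was far above the array median.

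Zfp703, of the NET family of transcriptional corepressors, was at 37.4 and 149 in control, at 32.8 and 36.4 in the Chd4 line, and at 38.3 and 51.6 in the Mbd3 line. Zfp711, an X-linked gene whose product works with the histone demethylase PHF8, was at 32.0 and 97.7 in control, at 50.7 and 42.2 in the Chd4 line, and at 38.7 and 41.6 in the Mbd3 line. Again the control array at day 4 was the brightest of the 6, by at least 3.59-fold and at least 2.36-fold over control at day 0.

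Zfp618, whose product binds the UHRF2 protein, stood at 48.1 and 187 in control, 48.0 and 89.2 in the Chd4 line, and 69.8 and 126 in the Mbd3 line, so that it was higher at day 4 in each line. Zfp768 stood at 52.6 and 152 in control, 63.3 and 58.4 in the Chd4 line, and 56.2 and 72.8 in the Mbd3 line. The other 10 genes of this group had log2 day differences from 1.03 (Zfp873) to 1.35 (Zfp800) in control: Zfp606, Zfp617, Zfp629, Zfp691, Zfp760, Zfp821, Zfp937 and Zfp942 completed it. For Zfp937 a second, dimmer probe set differed by 0.07, and the mean over its probe sets no longer passed 2-fold.

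**Figure D2:**
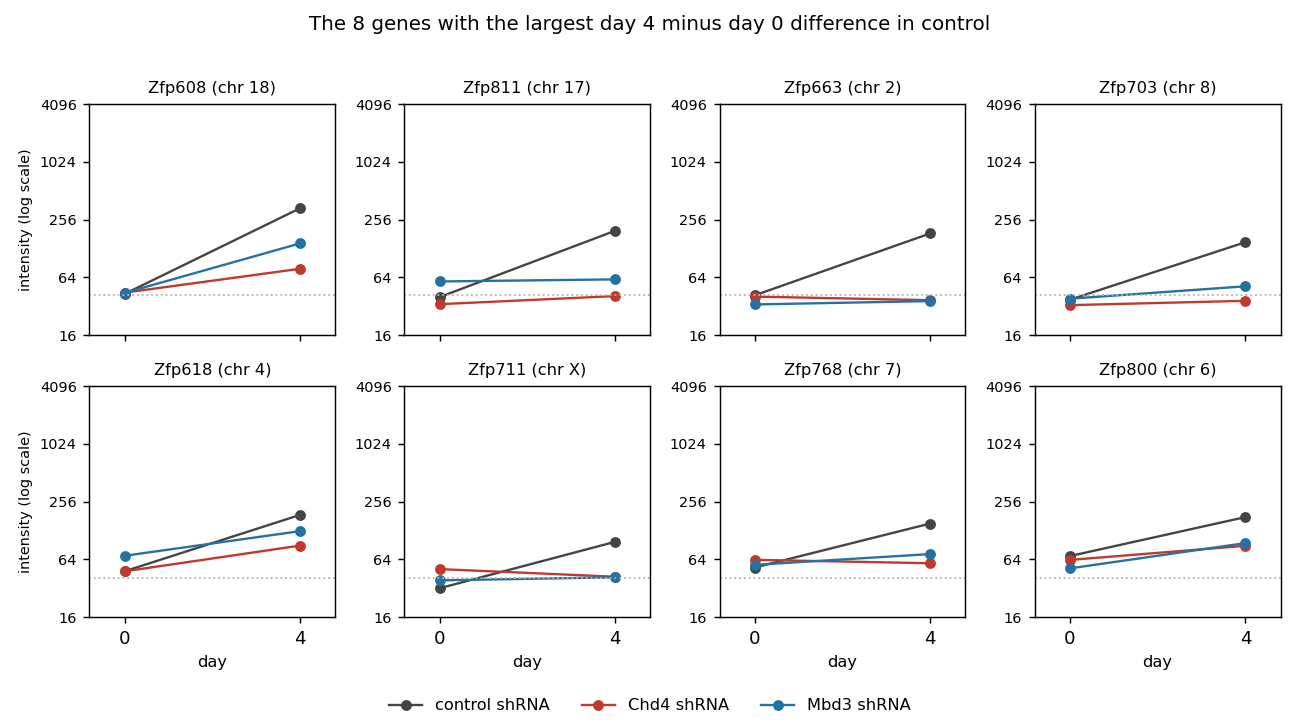
Intensity (log scale) at day 0 and day 4 of the 8 genes with the largest positive day difference in control, 1 point per array; colours and the dotted line at 41.4 are as in the plot of the chromosome 4 genes. The control array at day 4 is the brightest in each panel, and Zfp608, Zfp618, Zfp703, Zfp800 and Zfp811 are higher at day 4 in both knockdown lines too, by 0.07 to 1.72 on the log2 scale.

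The day step was then read in the knockdown lines, whose arrays are separate from the control pair. Of 134 genes compared in the Chd4 line, 4 were at least 2-fold higher at day 4 (2.99%, against 1.7% of all genes) and 0 lower (against 1.16%, or 2.86% either way). Of 139 in the Mbd3 line, 2 were higher (1.44%, against 1.6%) and 1 lower (0.719%, against 1.1%, or 2.7% either way). The genes were Zfp951, Zfp982, Zfp985 and Zfp948 in the Chd4 line, and Zfp608, Zfp981 and, lower, Zfp750 in the Mbd3 line. The medians were 0.01 and 0.10, against -0.01 and -0.03 over all genes.

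Zfp951 on chromosome 5 stood at 20.1 and 21.8 in control, at 20.2 and 74.5 in the Chd4 line, and at 18.9 and 39.9 in the Mbd3 line. Only the Chd4 array at day 4 lay above the floor, at least 1.80-fold, so its measured log2 difference of 1.88 is not a 2-fold difference against the floor. Zfp948 on chromosome 17 was higher at day 4 in all lines, at 107 and 168 in control, 80.2 and 175 in the Chd4 line, and 113 and 175 in the Mbd3 line.

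Of the 11 genes at least 2-fold lower at day 4 in control, 8 were higher at day 4 in the Chd4 line and 8 in the Mbd3 line. Their medians there were 0.31 and 0.32. Of the 17 genes higher by 2-fold or more in control, 10 were higher at day 4 in the Chd4 line and 16 in the Mbd3 line, with medians of 0.15 and 0.37. In the higher group, 7 genes in the Chd4 line and Zfp937 in the Mbd3 line were lower at day 4. Over all genes compared, 6506 of 13406 were higher at day 4 in the Chd4 line and 6104 of 13348 in the Mbd3 line. Both groups were picked on the control pair alone. Smaller differences on other arrays are expected from that choice, so nothing more is read from these counts.

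**Figure D3:**
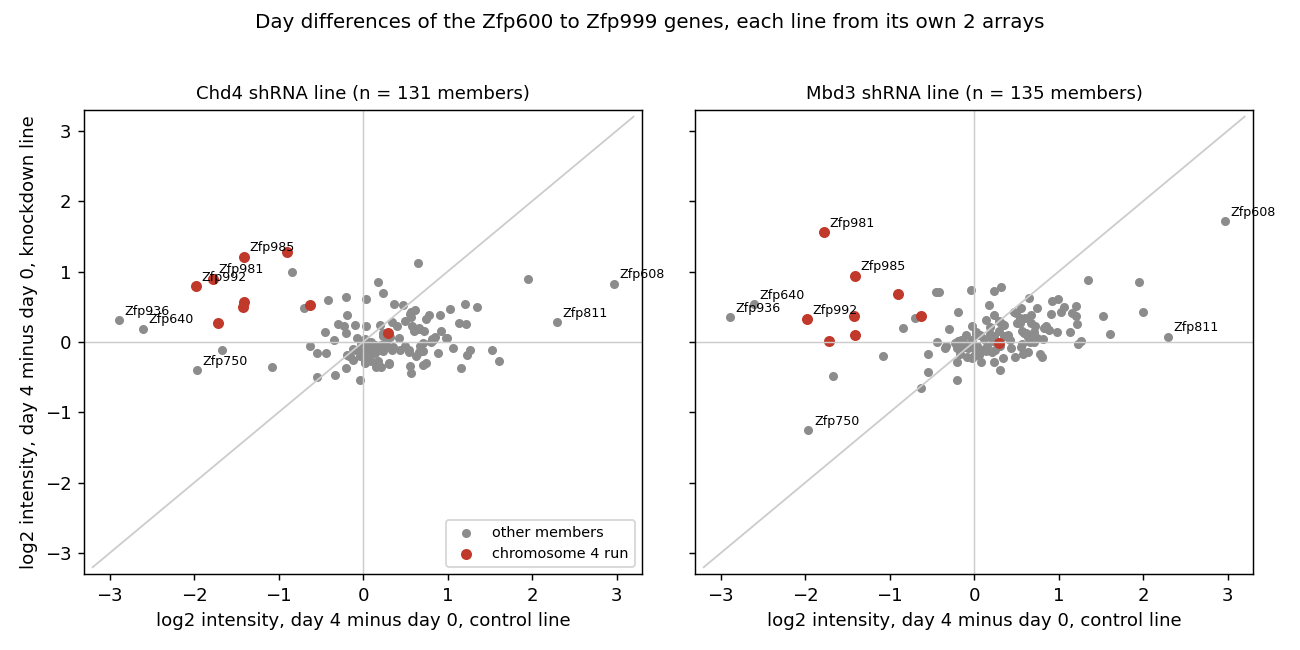
Log2 day difference (day 4 minus day 0) of each gene in the control line (x) against that in the Chd4 line (left, y) and the Mbd3 line (right, y); red points are the 9 chromosome 4 neighbours and the diagonal marks equal differences. Of these 9, 8 lie left of 0 on the x axis, and 9 (left panel) and 8 (right panel) lie above 0 on the y axis.

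An additive model of shRNA and day was fitted with limma over all 6 arrays and 12926 genes, 136 of them from Zfp600 to Zfp999. It leaves 2 residual degrees of freedom, and a day difference that varies between lines counts as error in it, as does any other departure from additive effects. limma called 0 of the 136 genes between the days at a Benjamini-Hochberg adjusted p under 0.05, as it called 0 of all genes (0.0%). On simulated data the fit recovered 35% of genes with a log2 change of 1 and 77% with a change of 2. The 0 calls therefore do not show that shared day differences are absent. At an unadjusted p under 0.05 there were 19 (14.0%), against 15.2% of all genes. Zfp948 had the smallest p, with a log2 day difference of 0.80 ± 0.16 (SE) and an adjusted p of 0.19, and was higher at day 4 in 3 of 3 lines. Without the control line, which leaves 1 residual degree of freedom and takes different knockdowns as repeats, limma called 9 of the 136 genes (6.62%, against 5.28% of all genes), all higher at day 4: Zfp608, Zfp618, Zfp800, Zfp808, Zfp934, Zfp948, Zfp981, Zfp982 and Zfp985. Zfp981 had a log2 day difference of 1.23 ± 0.18 (SE) in this fit. It is among the genes whose high knockdown values set the number range, so its call is a description and no support. In this fit the p-values set the shared day difference against the departure of these 4 arrays from additive effects. They do not measure the spread between cultures.

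The knockdowns were next set against control in stem cells. At day 0, 0 of 135 genes passed 2-fold in the Chd4 knockdown, against 0.692% of all genes higher, 0.565% lower and 1.26% either way, and 0 of 138 in the Mbd3 knockdown, against 0.366%, 0.314% and 0.68%. With shares this small over all genes, counts of 0 are near the background and say nothing particular about the Zfp genes, and 3 and 2 genes passed when 16 was subtracted from each intensity. Zscan4c and Zscan4d were the 2 of 6 measured markers of two-cell-like cells that met the brightness rule. At day 0 they were lower than control by log2 differences of -1.05 and -1.02 in the Chd4 knockdown. In the Mbd3 knockdown the differences were -0.69 and -0.83. For both, control at day 0 was the brightest of the 6 arrays, and the part of such cells in these values was not tested. The medians of the Zfp genes were -0.001 and 0.04. Closest to 2-fold was Zfp652, a partner of the CBFA2T3 corepressor, at 623 in control, 312 in the Chd4 line and 390 in the Mbd3 line. Zfp825 was at 333 in control, 273 in the Chd4 line and 171 in the Mbd3 line. The 9 chromosome 4 genes differed from control by -0.21 to 0.36 in the Chd4 knockdown and by -0.44 to 0.35 in the Mbd3 knockdown, and both extremes of the positive Chd4 and negative Mbd3 side belonged to Zfp981.

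At day 4 the differences from control were wide. These are the contrasts from which the number range was chosen, so the shares below are given and nothing is read from them. In the Chd4 knockdown 14 of 144 genes were at least 2-fold higher (9.72%, against 5.08% of all genes) and 11 lower (7.64%, against 6.64%), with 11.7% of all genes past 2-fold either way. In the Mbd3 knockdown 12 of 143 were higher (8.39%, against 3.44%) and 8 lower (5.59%, against 4.89%), with 8.34% of all genes either way. Both comparisons use the same control array at day 4, as does the control day difference, so all of them rest on that 1 array.

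Most genes lay below control by small amounts. In the Chd4 knockdown 96 of 144 genes were lower than control, against 7406 of 13733 over all genes. In the Mbd3 knockdown it was 101 of 143, against 7601 of 13588. The medians were -0.28 and -0.21, against -0.04 and -0.06 over all genes. The Zfp genes numbered below 600 had medians of -0.23 and -0.26, with 7 of 160 at least 2-fold higher and 14 lower in the Chd4 knockdown, and 4 higher and 11 lower in the Mbd3 knockdown.

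The large positive differences belonged to few genes. Zfp936 was 9.11-fold higher after Chd4 knockdown and 7.43-fold higher after Mbd3 knockdown, Zfp992 8.36-fold and 5.68-fold, Zfp981 8.19-fold and 7.41-fold, and Zfp640 6.90-fold and 6.04-fold. Zfp982 was 5.03-fold and 3.67-fold higher, Zfp980 4.30-fold and 3.60-fold, Zfp979 3.44-fold and 3.68-fold, Zfp600 at least 4.02-fold and at least 3.55-fold, and Zfp985 at least 4.55-fold and at least 3.04-fold. Zfp750 stood 2.91-fold and 2.99-fold and Zfp809 2.68-fold and 2.46-fold higher. These 11 genes were at least 2-fold higher in both knockdowns. Zfp819 and Zfp984 passed 2-fold after Chd4 knockdown and Zfp704 after Mbd3 knockdown alone, with log2 differences of 0.89, 0.95 and 0.97 in the respective other one. Zfp951 passed 2-fold as measured after Chd4 knockdown but was only at least 1.80-fold higher against the floor, and its control and Mbd3 values at day 4 both lay under the floor.

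The genes lower than control at day 4 were those higher at day 4 in control cells. In the Chd4 knockdown Zfp663 was at least 4.44-fold lower, Zfp811 at least 4.73-fold, Zfp608 4.28-fold and Zfp703 at least 3.59-fold, and in the Mbd3 knockdown they were lower by at least 4.44-fold, 3.21-fold, 2.33-fold and 2.88-fold. Zfp606, Zfp711 and Zfp768 completed the 7 genes lower by at least 2-fold in both, with log2 differences of -1.38 to -1.21 after Chd4 knockdown and -1.23 to -1.06 after Mbd3 knockdown.

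**Figure D4:**
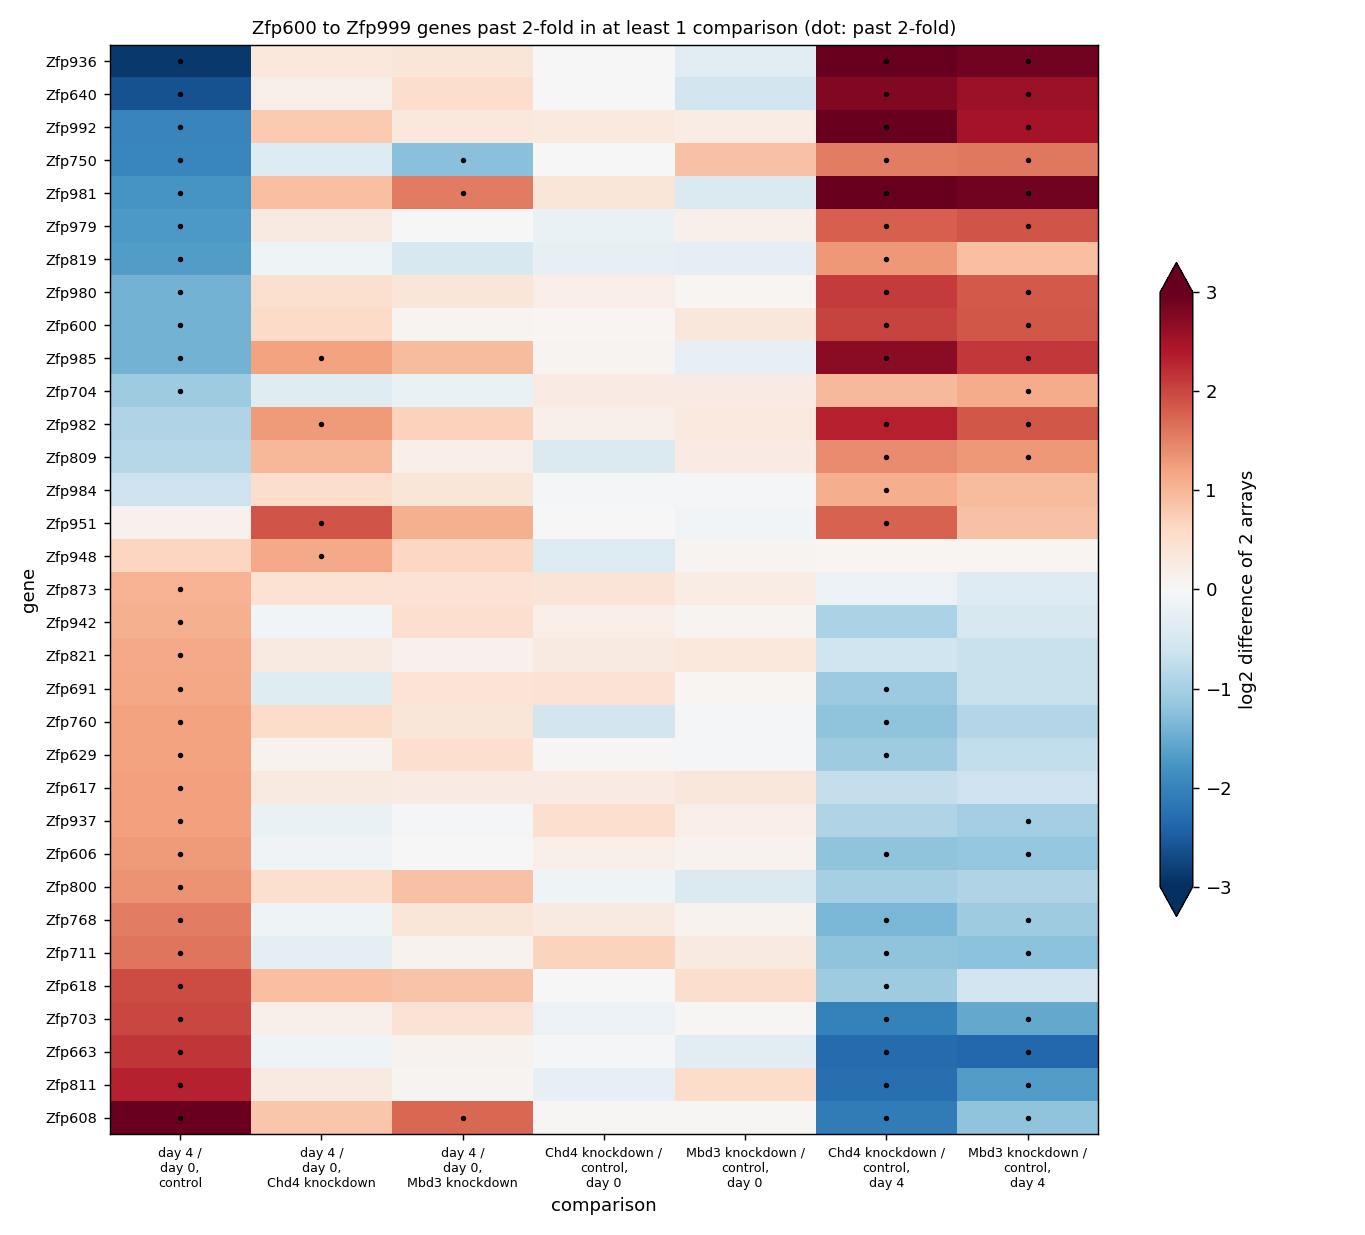
Log2 differences of the 33 genes past 2-fold in at least 1 of 7 comparisons, ordered by the day difference in control (first column); red is higher and blue lower in the first-named array, and a dot marks a difference past 2-fold in a gene that met the brightness rule. The columns for day 0 hold no dot, and the columns for day 4 against control share 1 control array with the first column.

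The knockdowns were also set against each other, a comparison with no control array in it. At day 0, 0 of 136 genes differed by 2-fold between the Chd4 and Mbd3 lines, against 1.05% of all genes (0.586% higher in the Chd4 line and 0.466% lower). At day 4 it was also 0 of 136, against 1.1% (0.923% higher and 0.18% lower). At day 4 Zfp608 was at 78.7 in the Chd4 and 145 in the Mbd3 line, and Zfp951 at 74.5 and 39.9, the latter value under the floor. At day 0 Zfp750 was at 165 in the Chd4 and 307 in the Mbd3 line, and Zfp981 at 1195 and 686. The 9 chromosome 4 genes differed by a median of 0.18 at day 4, with 7 of 9 higher in the Chd4 line. Over all genes compared it was 6811 of 13329, with a median of 0.005.

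Position is described next across the 11 runs of 4 or more neighbouring Zfp600 to Zfp999 genes, which hold 77 of the 155 genes. In the chromosome 4 run 8 of 9 genes were at least 2-fold higher than control after Chd4 knockdown and 7 of 9 after Mbd3 knockdown at day 4, with medians of 2.10 and 1.87. No other run had a positive median above 0.04 in either comparison. Over all genes the shares higher by 2-fold were 5.08% and 3.44%. These values come from the contrasts that chose the number range, and the run was singled out after its values were seen, so they describe where the high genes lie and support nothing more.

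Zfp936 lies in a run of 8 on chromosome 7, from Zfp788 to Zfp819, where the Chd4 median was 0.04 and the differences ran from -0.84 to 3.19. Of its neighbours there Zfp819 was also past 2-fold, and Zfp715, which follows Zfp936 in the run, stood at 0.30 after Chd4 knockdown and -0.04 after Mbd3 knockdown. Zfp640 heads a run of 6 on chromosome 13, where the other 5 genes, Zfp712, Zfp708, Zfp759, Zfp748 and Zfp738, lay between -0.96 and 0.17. Zfp809 was the 1 gene past 2-fold in its run on chromosome 9. The largest run, 14 genes on chromosome 17 from Zfp677 to Zfp945, had medians of -0.47 after Chd4 knockdown and -0.24 after Mbd3 knockdown and 0.56 between the days in control.

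**Figure D5:**
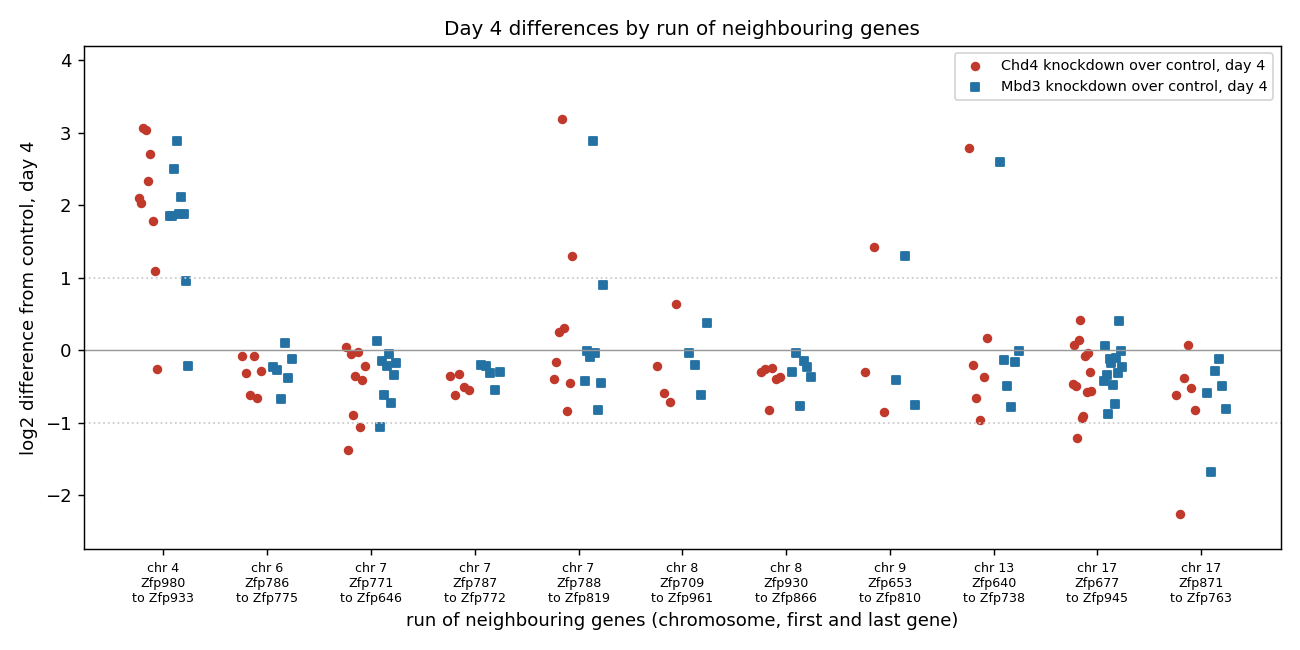
Log2 difference from control at day 4 of each gene (points) in the 11 runs of neighbouring genes, for the Chd4 (red circles) and Mbd3 (blue squares) knockdown, with dotted lines at 2-fold. In the first run, on chromosome 4, 8 of 9 red points lie above 1, while in the runs of Zfp936 (chromosome 7) and Zfp640 (chromosome 13) the high points stand alone or with 1 neighbour.

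The run of letters at the start sites was followed beyond these genes. Of the other 5 genes of the promoter table that hold it, 3 were on the arrays under the same symbol, all on chromosome 4. Rex2 stood at 511 and 162 in control at day 0 and day 4, 586 and 764 in the Chd4 line, and 491 and 735 in the Mbd3 line. Zfp534, a zinc-finger gene numbered below the range, stood at 596 and 208 in control, 729 and 765 in the Chd4 line, and 581 and 625 in the Mbd3 line. In both genes the control array at day 4 was the lowest of the 6. Gm13212 was at 31.4 and 21.6 in control, 33.4 and 47.5 in the Chd4 line, and 31.2 and 46.2 in the Mbd3 line, so that only the knockdown arrays at day 4 lay above the floor. These 3 genes were named after their values were seen. The match describes letters of the windows only, and how the run of letters relates to the levels was not tested.

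The corepressor and heterochromatin genes that work with KRAB proteins were taken as a list of 28, of which 25 were measured. Trim28 was at 3409 and 1809 in control at day 0 and day 4, 2871 and 2479 in the Chd4 line, and 2482 and 2266 in the Mbd3 line. Setdb1 was at 368 and 328 in control, 337 and 383 in the Chd4 line, and 370 and 347 in the Mbd3 line. Neither differed by 2-fold in any comparison.

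At day 4, 5 of the 25 were at least 2-fold higher than control after Chd4 knockdown and 4 after Mbd3 knockdown, with 0 lower and medians of 0.29 and 0.27. Over all genes 5.08% and 3.44% were higher and 6.64% and 4.89% lower. Dnmt3l, a cofactor of de novo DNA methylation, stood at 559 and 70.9 in control at day 0 and day 4, 572 and 573 in the Chd4 line, and 484 and 514 in the Mbd3 line, much like Zfp936. Tasor, of the HUSH silencing complex, and Resf1, a SETDB1-linked regulator of retroviral silencing, were 1.24 and 1.12 higher after Chd4 knockdown and 1.02 and 1.05 higher after Mbd3 knockdown on the log2 scale. The DNA methyltransferase genes Dnmt3b and Dnmt3a stood at 1.45 and 1.09 after Chd4 knockdown and 1.19 and 0.48 after Mbd3 knockdown. Between the days, Pphln1, a HUSH subunit, was 1.33 higher in control and Dnmt3l, Resf1 and Tasor were lower, and in both knockdown lines Dnmt3a and Dnmt3b were at least 2-fold higher.

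Markers of cell state also differed between these arrays. All 12 naive stem cell markers were at least 2-fold lower at day 4 in control (median -2.61), 8 of 12 in the Chd4 line (median -1.03) and 6 of 12 in the Mbd3 line (median -0.98). Their summed intensity was 10443 to 12746 on the day 0 arrays and at day 4 it was 2128 in control, 6245 in the Chd4 line and 5410 in the Mbd3 line. All 11 early neural markers were higher by 2-fold or more at day 4 in control, with a summed intensity of 7631, against 871 and 1356 in the Chd4 and Mbd3 lines. The part of cell state in the Zfp differences was not tested.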

How the data were processed

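Total RNA from 6 groups of mouse embryonic stem cells, 1 array each, was hybridized to Mouse Gene 2.0 ST arrays. The authors deposited linear intensities. The submitters' processing notes name RMA (background subtraction, quantile normalization, probe summary) with no version, and GeneSpring GX 12.6.1 is named in the series design. Whether a constant was added, and which build lies behind the probe sets, the sources used here do not give. The lowest intensity on each array was 17.4 to 17.6. A constant would shrink the folds of dim genes, so 16 was subtracted in an alternative.

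Log2 was taken with no further scaling. Of the probe sets, 23521 carried 1 symbol in the platform annotation, 1814 several and 9016 none. Groups came from the sample titles. Genes were placed and ordered by the RefSeq table of GRCm38.p6, which held all 155. limma 3.58.1 in R 4.3.3 fitted the day model to genes whose mean log2 intensity reached the median over all probe sets, and was tested on simulated data; Python 3.11.15 with pandas 2.3.3 and numpy 2.4.6 served elsewhere. The p-values test the day difference shared by the lines. The departure of single arrays from additive effects serves as the error.

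The range of genes, the lists and the rules were chosen with earlier results of these data known. Named genes were up to 30 past 2-fold in 7 comparisons, largest first. The 5 with the highest mean intensity (Zfp640, Zfp706, Zfp980, Zfp981 and Zfp992) were named too. Also named were genes at the edges of the range, neighbours of Zfp936, Zfp981 and Zfp640, and corepressor and heterochromatin genes past 2-fold. Of the cell type markers past 2-fold, only Zscan4c and Zscan4d were named. Zfp706 stood at 625 to 825 on the 6 arrays. Other genes were named after their values were seen. Endoderm and two-cell-like markers were also counted: of 8 and 6 measured, 1 and 0 passed 2-fold in the Chd4 knockdown at day 4, where 5 and 2 met the brightness rule, and 0 and 0 in the Mbd3 knockdown, where 4 and 2 did. Protein domains were not analysed here. The alternatives were 6 for the counts and 7 for the fit.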

Additional observations from a re-analysis of the deposited data

Results flagged for a closer look

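For 9 genes control cells differed by at least 2-fold between the days and both knockdown lines differed in the opposite direction. The difference between lines was not tested, since each rests on 1 pair of arrays. The log2 day differences in the control, Chd4 and Mbd3 lines were -2.89, 0.31 and 0.35 for Zfp936, -2.60, 0.19 and 0.53 for Zfp640, and -1.97, 0.79 and 0.32 for Zfp992. They were -1.77, 0.90 and 1.56 for Zfp981, -1.72, 0.27 and 0.01 for Zfp979, and -1.42, 0.49 and 0.37 for Zfp980. Zfp600 had -1.41, 0.56 and 0.09 and Zfp985 -1.41, 1.21 and 0.94. Zfp937 was the 1 gene of the 9 higher in control, at 1.23, with -0.19 and -0.03 in the knockdown lines.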

How the results depend on the processing

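No named difference past 2-fold changed its sign under the alternatives run. The counts of Zfp600 to Zfp999 genes past 2-fold stayed within 1.5 times of their value, other than when 16 was subtracted from each intensity before log2. Then 3 genes in place of 0 passed 2-fold in the Chd4 and 2 in place of 0 in the Mbd3 knockdown at day 0, 8 in place of 4 between the days in the Chd4 line and 7 in place of 3 in the Mbd3 line, and 2 in place of 0 between the knockdowns at each day. The subtraction widens the differences of dim genes by construction. It also turned 14 higher and 11 lower genes in the Chd4 knockdown at day 4 into 15 and 22, 12 and 8 in the Mbd3 knockdown into 14 and 14, and 17 and 11 between the days in control into 29 and 12. The limma fit called 0 genes under the alternatives that kept all 6 arrays and 9 without the control line. With both arrays required to reach their median, 13 of the 77 named differences no longer entered, since 1 array lay under its median. With values under the floor set to it, Zfp951, Zfp629 and the control day difference of Zfp985 no longer passed 2-fold. The groups carry no replicate numbers, so no fit with them as a block was run, and the limma fit already pairs the days within each line. Signal near the background limits what can be said of the 9 genes under the floor on all arrays.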
